A study of Mus musculus with 9 samples.

Results

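The Ms4a membrane protein family was followed here through 8 genes of mouse chromosome 19 (Ms4a4a, Ms4a4b, Ms4a4c, Ms4a6b, Ms4a6c, Ms4a6d, Ms4a7 and Ms4a8a). They were taken by symbol from the 53801 Ensembl genes counted in each library. The RNA came from cells sorted as CD11c-Ly6G-CD11b+CD45high, called blood monocytes when sorted from blood and brain macrophages when sorted from brain. All mice were male C57BL/6J mice of 9 weeks. The 3 groups, with 3 libraries each, were sham blood (sham operation), stroke blood and stroke brain. Stroke was dMCAO, a permanent closure of the distal middle cerebral artery and the left common carotid artery, and stroke cells were collected 5 days later. The day of collection of the sham mice is not given in the sources used here. Each brain library was a pool of the ipsilesional hemispheres of 5 mice, whereas each blood library came from 1 mouse, so the spread between brain libraries is a spread between pools. The gate does not separate monocyte-derived macrophages from microglia that have raised CD45.

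MS4A proteins are small membrane proteins that cross the membrane 4 times, and the best known of them is CD20 (Ms4a1) of B cells. Members that myeloid cells carry sit beside surface receptors and adjust their signals. MS4A4A is found on macrophages with the fungal receptor Dectin-1 (Clec7a), and human variants at the MS4A locus are linked to soluble TREM2 and to the risk of Alzheimer's disease. Ms4a4b is mainly a T cell gene whose product associates with GITR (Tnfrsf18). Ms4a7 is known in the brain as a gene of border-associated macrophages and of macrophages that derive from bone marrow, more than of resident microglia. Ms4a8a has been described in alternatively activated macrophages.

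The 8 genes lie within chr19:11067471-11604849 of GRCm38, a stretch of 537 kb that also holds other Ms4a genes. From the low to the high coordinate they are Ms4a8a (chr19:11067471-11081102, minus strand), Ms4a7 (chr19:11321039-11336146, minus), Ms4a4a (chr19:11375523-11392790, plus), Ms4a4c (chr19:11404770-11427246, plus), Ms4a4b (chr19:11443553-11467055, plus), Ms4a6c (chr19:11469366-11482192, plus), Ms4a6b (chr19:11516512-11531256, plus) and Ms4a6d (chr19:11586604-11604849, minus). All are annotated as protein coding, in 6 to 9 separate exon blocks each. Some genes of the cluster are close copies of each other, and 5 of them can be shown by the start of their coding sequence. The sequences below are the first 120 bases from the start codon, from GENCODE M21 transcripts, with capitals at the positions where the genes of one set differ. Ms4a4b and Ms4a4c differ at 9 of these positions, and Ms4a6b, Ms4a6c and Ms4a6d at 22.
Ms4a4b: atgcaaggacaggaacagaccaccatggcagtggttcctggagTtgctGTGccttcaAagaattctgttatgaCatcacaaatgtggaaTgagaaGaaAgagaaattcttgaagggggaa
Ms4a4c: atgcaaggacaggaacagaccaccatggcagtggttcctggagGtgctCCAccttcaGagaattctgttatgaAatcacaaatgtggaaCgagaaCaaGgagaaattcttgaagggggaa
Ms4a6b: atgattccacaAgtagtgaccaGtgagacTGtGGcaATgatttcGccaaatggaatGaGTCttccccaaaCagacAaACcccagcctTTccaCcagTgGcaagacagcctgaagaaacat
Ms4a6c: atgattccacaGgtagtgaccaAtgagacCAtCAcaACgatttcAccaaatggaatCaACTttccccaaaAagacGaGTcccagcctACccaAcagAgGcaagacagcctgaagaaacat
Ms4a6d: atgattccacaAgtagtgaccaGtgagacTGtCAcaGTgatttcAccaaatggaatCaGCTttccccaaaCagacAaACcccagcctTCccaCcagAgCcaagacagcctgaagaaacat

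Over the whole coding sequence, Ms4a4b and Ms4a4c were identical at 625 of 681 aligned bases (91.8%). Ms4a6b was identical to Ms4a6c at 85.3% of aligned bases and to Ms4a6d at 81.3%, and Ms4a6c to Ms4a6d at 79.1%. The other pairs had 59.4% to 68.3% identity. The longest run of bases shared by Ms4a4b and Ms4a4c, in the coding sequence from base 321 to base 447, is long enough to hold a whole 75-base read.
Ms4a4b and Ms4a4c shared run: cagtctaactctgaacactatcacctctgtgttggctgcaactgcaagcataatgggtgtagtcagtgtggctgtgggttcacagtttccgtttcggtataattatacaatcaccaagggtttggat
Genes that overlap a member on the opposite strand aside, 3.78% of all 75-base stretches of the transcripts of Ms4a4c and 1.18% of those of Ms4a4b occur in another gene as well, and 2.88% in Ms4a6c, 0.632% in Ms4a6b and 0.408% in Ms4a6d. None did in Ms4a4a, Ms4a7 or Ms4a8a. Ms4a6c in addition shares 1088 bases of exon with BE692007, a gene of the opposite strand. How the counting treated strand is not given in the sources used here, so reads of that pair cannot be told apart. BE692007 itself was listed with 564 to 888 counts in the blood libraries and 317 to 407 in the brain libraries.

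Libraries held between 18475118 and 22623578 counts. Levels are given as CPM, the usual share of a library's counts, after TMM scaling of the library size (which sets the bulk of genes equal between libraries). The classical monocyte list (7 genes, with Ly6c2 and Ccr2) summed to 17952 to 38298 CPM in blood and 6615 to 7309 CPM in brain. The microglia list (9 genes) summed to 17.1 to 51.7 CPM in blood and to 939, 1376 and 3001 CPM in brain libraries 1, 2 and 3, and its defining gene Sall1 was at 0 in every blood library. The border-associated macrophage list (7 genes) summed to 21.4 to 100.04 CPM in blood and to 73.9, 144 and 231 CPM in the brain libraries. The non-classical monocyte list ranged from 1322 to 2123 CPM in blood and 2368 to 4542 CPM in brain, where 1 of its 7 genes was a DEG against stroke blood. Without Nr4a1, which had 3081, 692 and 863 CPM in brain, the sums of this list overlapped, at 1700 to 1848 CPM in stroke blood and 1460 to 1985 CPM in brain. The dendritic cell list ranged from 96.4 to 349 CPM and from 623 to 797 CPM. Sham blood 3 stood apart from the other sham blood libraries with Chil3 at 23346 CPM against 6709 and 10137 CPM. The neutrophil list (8 genes) summed to 1733 CPM in it, against 212 and 377 CPM in sham blood 1 and 2. S100a8 was at 984 CPM against 42.5 and 77.8 CPM, whereas Camp and Ltf were highest in sham blood 1. In bulk samples, fewer cells of a type and less RNA per cell cannot be told apart.

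**Figure D1:**
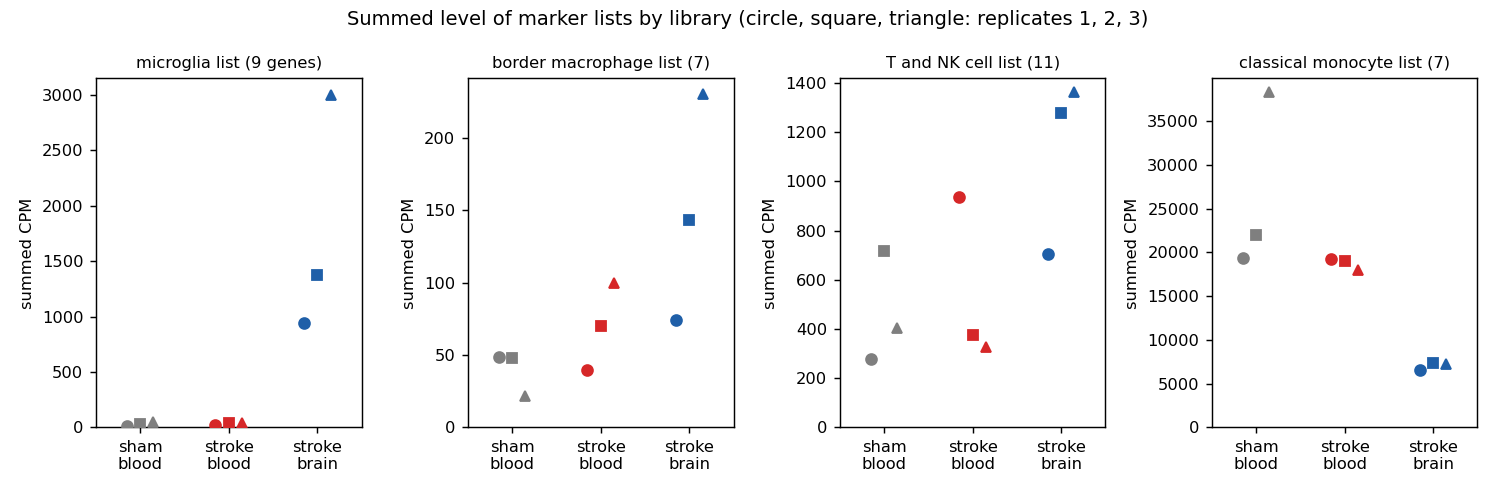
Summed CPM (y axis) of 4 marker lists in the 9 libraries, grouped on the x axis as sham blood, stroke blood and stroke brain; each point is 1 library. The microglia list reached 939 to 3001 CPM in brain libraries against at most 51.7 CPM in blood, while the classical monocyte list was lower in brain than in every blood library.

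The first comparison asked how the family differed between brain macrophages and the blood monocytes of stroke mice. Ms4a7 was upregulated in brain macrophages, Ms4a8a and Ms4a6c were downregulated by more than 2-fold, and Ms4a4a, Ms4a4c and Ms4a6b were lower by less than 2-fold. Ms4a4b and Ms4a6d did not pass the test. A differentially expressed gene (DEG) had an adjusted p under 0.05 by edgeR's quasi-likelihood test and a change of more than 2-fold. By that rule 3 of 8 members were DEGs, against 21.0% of the 13189 genes tested. 1 of them was higher and 2 were lower in brain, against 13.1% and 7.86% of all genes in these directions. At an adjusted p under 0.05 and any fold, 1 member was higher and 5 were lower, against 30.6% of all genes in either direction and 13.1% in the lower one. The median log2 fold change of the 8 members was -0.83, and that of all genes tested was 0.06. The libraries of the groups did not overlap for 6 of 8 members, as for 47.9% of all genes tested.

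Ms4a7 had 14.4, 11.2 and 18.998 CPM in the sham blood libraries, 13.8, 18.9 and 23.9 CPM in the stroke blood libraries and 94.5, 154 and 214 CPM in the brain libraries. Each brain library was above every blood library, with brain 1 the lowest of the brain libraries. Its level was 154 ± 59.7 CPM (SD, n = 3) in brain and 18.9 ± 5.07 CPM in stroke blood, a log2 fold change of 3.05 (SE 0.32, edgeR adjusted p = 0.00021), or 8.31-fold. Leaving out 1 library at a time gave log2 fold changes between 2.76 and 3.31. The summed levels of the microglia and the border-associated macrophage lists were likewise lowest in brain 1 and highest in brain 3. That order was not particular to them. The T and NK cell list (703, 1280 and 1364 CPM) and Trem2 (121, 179 and 275 CPM) shared it, while the dendritic cell list had the reverse order (797, 650 and 623 CPM). Of the microglia list, 9 of 9 genes were DEGs higher in brain than in stroke blood, and of the border-associated macrophage list 5 of the 6 tested. The share over all genes tested was 13.1%. Only 4 genes of each list had enough counts for a test between the blood groups. The others had enough counts only through the brain libraries, so their direction was largely set in advance. Within the border list, Mrc1 had 29.4, 63.5 and 85.6 CPM in the 3 brain libraries (at most 11.9 CPM in blood), Cd163 had 6.38, 17.1 and 20.02 CPM (at most 4.62) and Cbr2 had 15.03, 21.8 and 56.5 CPM (at most 10.9). Lyve1, Cd209f and Folr2 were at 0.19, 0.48 and 0.43 CPM in brain 1 and reached 13.1, 21.1 and 2.65 CPM in brain 3, and Siglec1 overlapped blood. The part of these cells in the level of Ms4a7 was not tested.

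**Figure D2:**
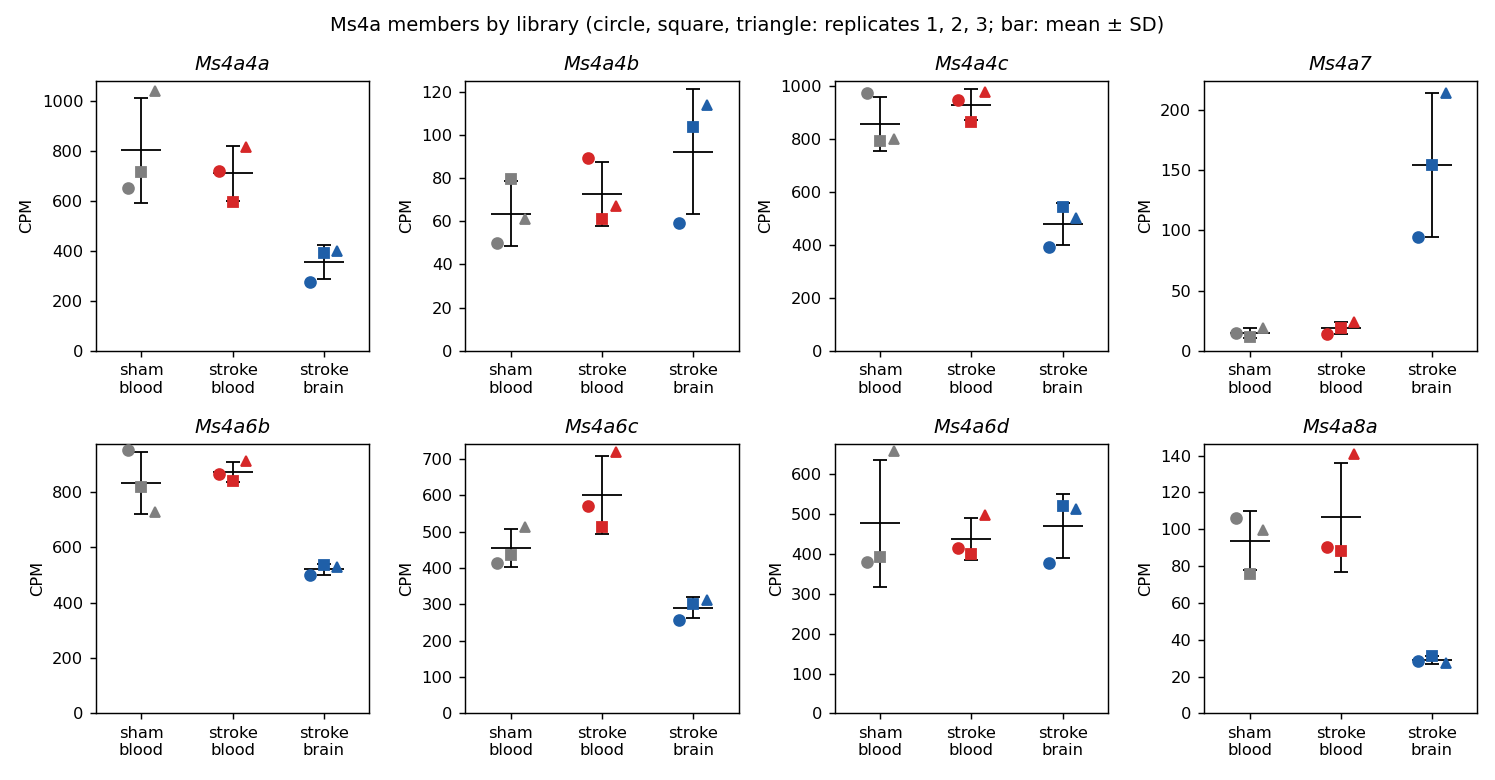
CPM (y axis, from 0) of each of the 8 Ms4a genes in sham blood, stroke blood and stroke brain (x axis); points are libraries, and bars show mean ± SD of 3 libraries. Ms4a7 was above all blood libraries in brain, Ms4a4a, Ms4a4c, Ms4a6b, Ms4a6c and Ms4a8a were below all of them, and Ms4a4b and Ms4a6d overlapped between groups.

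Ms4a8a moved in the opposite direction. It had 106, 75.9 and 99.4 CPM in sham blood, 90.2, 88.3 and 141 CPM in stroke blood, and 28.6, 31.2 and 27.2 CPM in brain. The 3 brain libraries lay close together and below all 6 blood libraries. The level was 29.0 ± 2.01 CPM in brain and 106 ± 29.8 CPM in stroke blood (SD, n = 3 each), a log2 fold change of -1.85 (SE 0.21, edgeR adjusted p = 0.000343), or 3.60-fold lower in brain. Leaving out each library in turn gave values between -2.01 and -1.63.

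Ms4a6c, a gene of the second group of close copies, had 571, 511 and 719 CPM in stroke blood and 257, 301 and 312 CPM in brain, with 414, 434 and 513 CPM in sham blood. Every brain library was below every blood library. Its log2 fold change between brain and stroke blood was -1.02 (SE 0.17, edgeR adjusted p = 0.00206), or 2.03-fold lower, which is just beyond the 2-fold limit. Without stroke blood 3 it was -0.91 and without brain 1 it was -0.95, so the DEG call was lost by size, and the adjusted p stayed under 0.05 in all 17 alternative analyses. The opposite-strand gene BE692007, whose exons overlap those of Ms4a6c, also had fewer counts in each brain library than in any blood library.

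Ms4a4a, the macrophage gene linked to Dectin-1, had 718, 597 and 817 CPM in stroke blood and 277, 392 and 398 CPM in brain. Sham blood held 650, 714 and 1042 CPM, the last of these in sham blood 3. Brain libraries were below all blood libraries, with a log2 fold change against stroke blood of -0.97 (SE 0.19, edgeR adjusted p = 0.00431), or 1.96-fold lower. Ms4a4a lay so near the 2-fold limit that it became a DEG in 4 of 6 analyses without 1 library, with log2 fold changes between -1.13 and -0.82.

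Ms4a4c, a gene that is abundant in classical monocytes, had 949, 864 and 978 CPM in stroke blood and 390, 542 and 503 CPM in brain. In sham blood it had 973, 794 and 800 CPM, so all blood libraries were above all brain libraries. Its log2 fold change was -0.93 (SE 0.16, edgeR adjusted p = 0.00257), or 1.91-fold lower in brain, and it was a DEG without stroke blood 2 (-1.03) or without brain 2 (-1.02). Ms4a6b showed the smallest change of the lower members. It had 864, 838 and 911 CPM in stroke blood, 951, 815 and 728 CPM in sham blood and 498, 535 and 530 CPM in brain, again with no overlap. The log2 fold change was -0.72 (SE 0.13, edgeR adjusted p = 0.00378), or 1.64-fold lower. Of the classical monocyte list, 6 of 7 genes were DEGs lower in brain than in stroke blood, against 7.86% of all genes tested. What part a lower share of classical monocytes had in the levels of the 5 lower members was not tested.

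Ms4a4b and Ms4a6d, each a close copy of a gene that was lower in brain, did not pass the test. Ms4a4b had 89.3, 61.2 and 67.2 CPM in stroke blood and 59.2, 104 and 114 CPM in brain, and brain 1 lay below all stroke blood libraries. The log2 fold change was 0.37 (SE 0.25, edgeR adjusted p = 0.295). Leaving out 1 library at a time gave values between 0.20 and 0.61. The highest was without brain 1, where the edgeR adjusted p was 0.0462 and the change stayed under 2-fold. The T and NK cell list (11 genes, with Cd3e and Gzma) summed to 936, 376 and 326 CPM in stroke blood and 703, 1280 and 1364 CPM in brain, so brain 1 was the lowest of the brain libraries and stroke blood 1 the highest of its group for both this list and Ms4a4b. Of the list, 6 of 11 genes were DEGs higher in brain than in stroke blood, against 13.1% of all genes tested. In sham blood the list summed to 279, 717 and 406 CPM, which overlapped brain. Against sham blood, 2 of 11 genes were DEGs higher in brain (9.75% of all genes). Within the list, Gzma, which encodes granzyme A, had 258, 605 and 622 CPM in brain and 478, 170 and 172 CPM in stroke blood, which overlapped. Nkg7, Ncr1 and Klrb1c overlapped between these groups as well. Lck, a kinase of T cells, had 77.1, 76.3 and 105 CPM in brain (17.02 to 45.02 CPM in stroke blood). Of the T cell receptor chains, Cd3d was at 6.22 to 7.78 CPM and Cd3g at 7.66 to 14.1 CPM in brain, above stroke blood (at most 2.78 and 3.48 CPM), while Cd3e at 8.07, 1.08 and 1.35 CPM overlapped stroke blood. The part of T and NK cells in the level of Ms4a4b was not tested.

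Ms4a6d had 414, 401 and 497 CPM in stroke blood, 376, 521 and 513 CPM in brain and 379, 392 and 660 CPM in sham blood. The ranges of all 3 groups overlapped. Its log2 fold change between brain and stroke blood was 0.13 (SE 0.17, edgeR adjusted p = 0.602), and -0.02 with upper-quartile scaling, so no direction can be given.

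**Figure D3:**
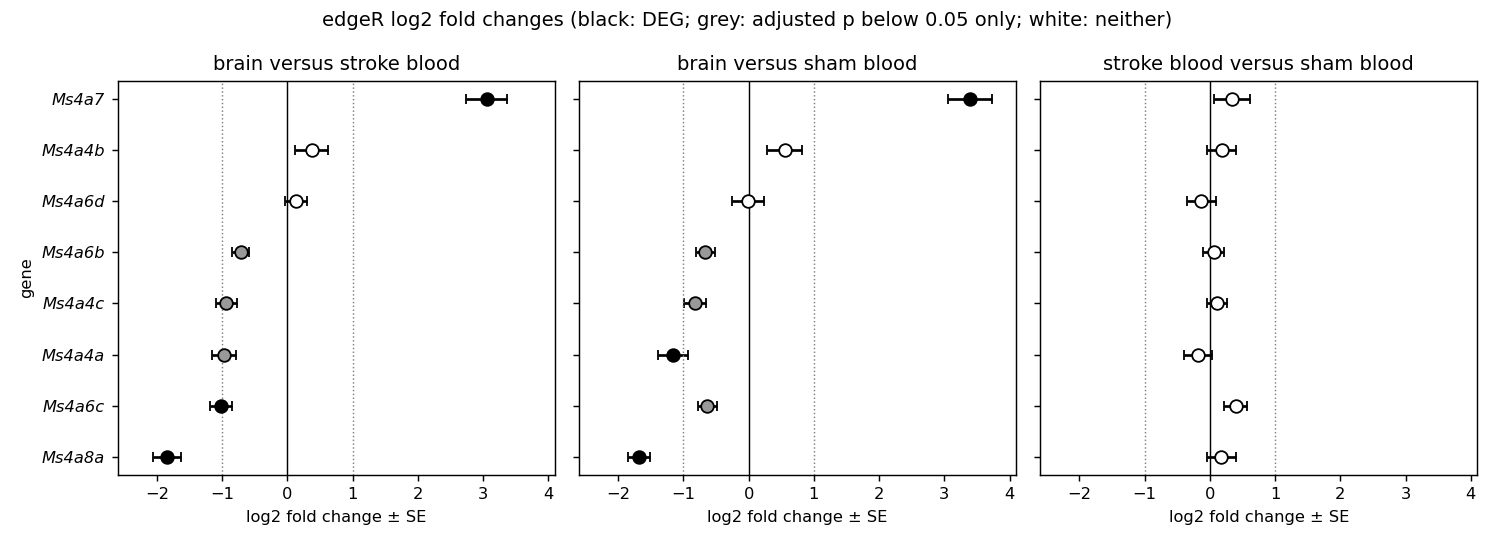
Log2 fold changes (x axis) of the 8 genes (y axis) in the 3 comparisons, with bars for the SE; black points are DEGs, grey points passed an adjusted p of 0.05 below a 2-fold change, and white points passed neither. Ms4a7 was the sole DEG above 0 in both comparisons with brain, and no point is filled in the comparison of stroke blood with sham blood.

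The same brain libraries were then set against sham blood, so these values share the brain libraries with those above. Again 3 of 8 members were DEGs, against 13.4% of the 13020 genes tested, with 1 higher and 2 lower in brain, against 9.75% and 3.67% of all genes. At an adjusted p under 0.05 and any fold, 1 member was higher and 5 lower, against 19.8% of all genes in either direction and 7.68% in the lower one. The median log2 fold change was -0.65 for the members and 0.01 for all genes tested, and libraries did not overlap for 6 members, as for 41.3% of all genes. Ms4a7 had a log2 fold change of 3.39 (SE 0.34, edgeR adjusted p = 0.00102), or 10.5-fold higher in brain than its 14.9 ± 3.93 CPM in sham blood (SD, n = 3). Ms4a8a had -1.68 (SE 0.17, edgeR adjusted p = 0.00117) from 93.8 ± 15.9 CPM in sham blood, or 3.20-fold lower. Ms4a4a was the third DEG at -1.16 (SE 0.22, edgeR adjusted p = 0.0121), from 802 ± 210 CPM in sham blood. Without sham blood 3, its highest library, Ms4a4a was at -0.93 and no longer a DEG.

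Ms4a4c, Ms4a6b and Ms4a6c were lower in brain than in sham blood by log2 fold changes of -0.82, -0.66 and -0.63, with edgeR adjusted p-values of 0.0138, 0.0168 and 0.0209. The first of these kept an adjusted p under 0.05 in all 17 alternatives, Ms4a6b in 15 and Ms4a6c in 14. Ms4a4b was at 0.55 (SE 0.27, edgeR adjusted p = 0.195), and without brain 1 at 0.78 (edgeR adjusted p = 0.0455). Ms4a6d had 477 ± 158 CPM in sham blood and 470 ± 81.0 CPM in brain (SD, n = 3), and its log2 fold change was -0.009 (SE 0.24, edgeR adjusted p = 0.985). Without sham blood 3 it was 0.29, so its sign rested on that library.

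Between stroke blood and sham blood, the comparison of circulating monocytes after stroke, none of the 8 members was a DEG by edgeR or by DESeq2. Of the 12664 genes tested, 1 was a DEG (0.00790%). Ms4a6c alone among the members had an unadjusted p under 0.05, as 12.5% of all genes tested did. It had 600 ± 107 CPM in stroke blood and 454 ± 52.0 CPM in sham blood (SD, n = 3 each), and the libraries overlapped. The difference was a log2 fold change of 0.40 (SE 0.17, edgeR adjusted p = 0.398). The log2 fold changes of the others ran from -0.18 for Ms4a4a to 0.34 for Ms4a7, with edgeR adjusted p-values between 0.625 and 0.891. No member had groups that did not overlap, against 18.4% of all genes tested. SEs of 0.16 to 0.27 set the size of difference that these 6 libraries could show.

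Levels were compared between members only as CPM per kb of annotated exon. Ms4a4a ranked first in every group, at 959 ± 251, 850 ± 132 and 426 ± 81.6 CPM per kb in sham blood, stroke blood and brain (SD, n = 3 each). Ms4a4c came second at 488 ± 58.1, 531 ± 33.7 and 273 ± 44.9 CPM per kb. In both blood groups the library ranges of these neighbours did not overlap each other or the next gene. The 3 Ms4a6 genes followed. In sham blood Ms4a6d (275 CPM per kb), Ms4a6c (221) and Ms4a6b (185) overlapped in turn, and in stroke blood Ms4a6c (293) overlapped Ms4a6d (252) but not Ms4a6b (194).

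Further down, Ms4a8a had 52.3 and 59.3 CPM per kb in sham and stroke blood, Ms4a4b 7.24 and 8.26, and Ms4a7 was last at 3.34 and 4.24. These ranges did not overlap their neighbours. In brain the order was altered in the level per kb. Ms4a6d reached 271 ± 46.7 CPM per kb, which overlapped Ms4a4c (273 ± 44.9) and lay above Ms4a6c (142 ± 14.1) and Ms4a6b (116 ± 4.41). Ms4a7 at 34.6 ± 13.4 CPM per kb was above Ms4a8a at 16.2 ± 1.12 and Ms4a4b at 10.5 ± 3.32, with no overlap between these 3 ranges. The order of the last pair depended on the length taken for Ms4a4b, whose gene ends at 11463549 in the count files and at 11467055 in the annotation. With exons up to the earlier end, a length chosen after seeing the data, Ms4a4b had 17.5 ± 5.52 CPM per kb in brain, which overlapped both Ms4a8a and Ms4a7. The 8 genes together held 1936 to 2562 CPM per kb in blood libraries and 1052 to 1409 CPM per kb in brain libraries. Of that sum, Ms4a6d made up 10.7% to 14.8% in sham blood, 10.98% to 11.9% in stroke blood and 20.6% to 21.3% in brain. Ms4a7 made up 0.127% to 0.219% in blood libraries and 2.02% to 3.42% in brain. With the length of the longest transcript in place of the exon union, 22 of 24 ranks were kept, and Ms4a6d then preceded Ms4a4c in brain.

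**Figure D4:**
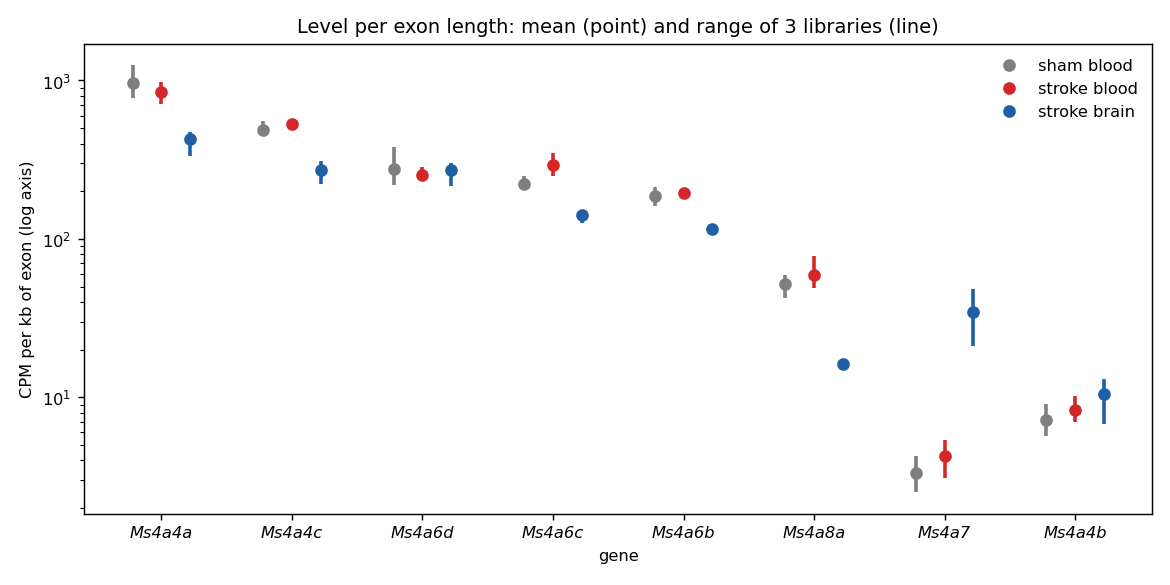
CPM per kb of exon (y axis, log scale) of the 8 Ms4a genes (x axis) in the 3 groups, with a point for the mean and a line for the range of 3 libraries. Ms4a4a led in each group, and Ms4a7 was last in both blood groups (3.34 and 4.24 CPM per kb) but reached 34.6 CPM per kb in brain.

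Ratios of counts within a library do not depend on the scaling, and 4 of them were chosen after the levels had been seen, so they are given with no test. Ms4a6d over Ms4a6b was 0.398, 0.481 and 0.906 in sham blood, 0.479, 0.478 and 0.545 in stroke blood and 0.756, 0.973 and 0.968 in brain. Sham blood 3 thus fell within the brain range, and the other blood libraries lay below it. Ms4a6d over Ms4a6c was 0.691 to 1.29 in blood and 1.46 to 1.73 in brain. Ms4a4b over Ms4a4c was 0.0513 to 0.101 in blood and 0.152, 0.192 and 0.226 in brain, with no overlap. Ms4a7 over Ms4a4a was 0.0156 to 0.0316 in blood and 0.341, 0.394 and 0.537 in brain, the widest gap of these 4 ratios.

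**Figure D5:**
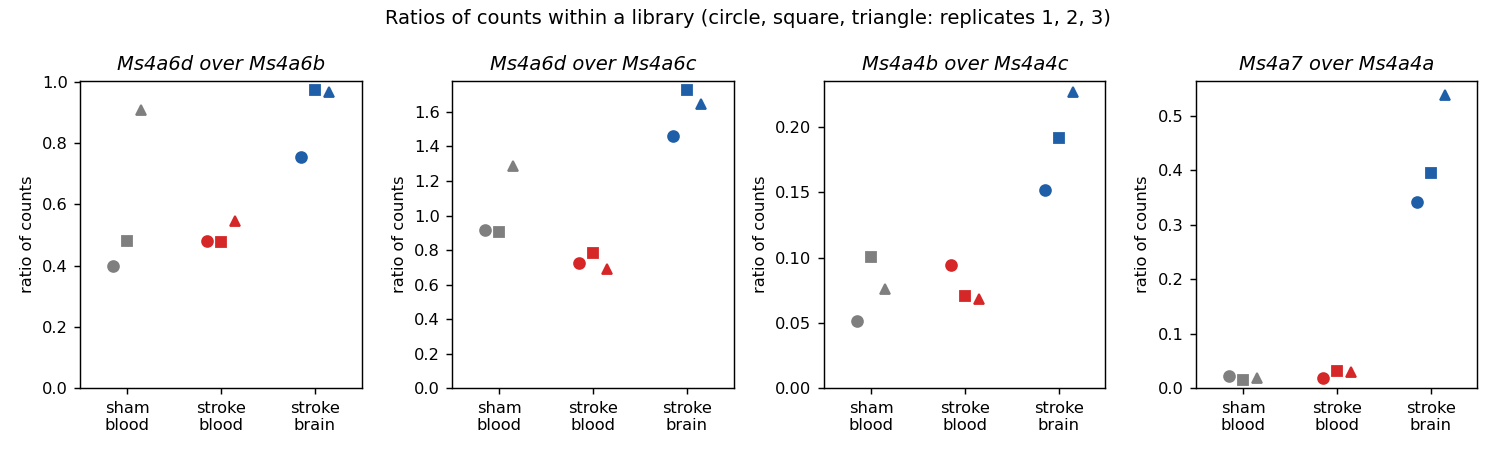
Ratio of counts (y axis, from 0) of 4 pairs of Ms4a genes within each library, by group (x axis); each point is 1 library. Ratios were higher in brain than in all blood libraries for 3 pairs, while for Ms4a6d over Ms4a6b sham blood 3 (0.906) fell among the brain libraries (0.756 to 0.973).

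Sequences upstream of the start were available for 7 of 8 members (8 windows of 250 bases, RefSeq, GRCm38.p6), and Ms4a6d had none in the table. The windows shown belong to the close copies Ms4a4b and Ms4a4c, which differed in their change, and to Ms4a7 and Ms4a8a, which had the greatest changes among the members. Capitals mark letters of 4 motifs, those of PU.1, C/EBP, AP-1 and the TATA box, which were searched on both strands and are spelled out after the sequences. Longer motifs, of NF-kB and IRF, were also searched at first and are not reported here. Ms4a7 has windows at 2 annotated starts, and both are shown. The first lies directly upstream of the gene, at chr19:11336147-11336396 (minus strand), and the second inside it, at chr19:11334696-11334945 (minus). The window of Ms4a4c, at chr19:11407411-11407660 (plus), also lies inside the gene as GENCODE annotates it. Those of Ms4a4b and Ms4a8a are at chr19:11443308-11443557 (plus) and chr19:11081104-11081353 (minus).
Ms4a4b promoter: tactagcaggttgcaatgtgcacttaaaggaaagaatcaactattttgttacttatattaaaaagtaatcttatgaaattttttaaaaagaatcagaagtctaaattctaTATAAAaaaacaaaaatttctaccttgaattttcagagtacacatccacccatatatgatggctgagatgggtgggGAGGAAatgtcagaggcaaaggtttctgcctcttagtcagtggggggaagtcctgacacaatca
Ms4a4c promoter: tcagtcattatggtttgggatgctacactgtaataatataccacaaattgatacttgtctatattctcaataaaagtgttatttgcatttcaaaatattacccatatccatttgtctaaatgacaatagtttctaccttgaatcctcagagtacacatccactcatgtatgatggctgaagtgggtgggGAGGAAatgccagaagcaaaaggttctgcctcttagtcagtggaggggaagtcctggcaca
Ms4a7 promoter, first start: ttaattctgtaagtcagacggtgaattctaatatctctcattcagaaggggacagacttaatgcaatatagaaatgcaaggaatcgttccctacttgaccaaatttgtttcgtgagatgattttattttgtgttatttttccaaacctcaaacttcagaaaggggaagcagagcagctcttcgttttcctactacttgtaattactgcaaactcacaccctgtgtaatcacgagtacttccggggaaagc
Ms4a7 promoter, second start: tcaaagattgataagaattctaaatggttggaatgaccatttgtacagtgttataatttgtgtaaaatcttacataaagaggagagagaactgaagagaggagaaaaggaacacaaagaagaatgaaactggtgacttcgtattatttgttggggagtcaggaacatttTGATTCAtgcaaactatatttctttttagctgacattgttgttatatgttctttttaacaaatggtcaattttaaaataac
Ms4a8a promoter: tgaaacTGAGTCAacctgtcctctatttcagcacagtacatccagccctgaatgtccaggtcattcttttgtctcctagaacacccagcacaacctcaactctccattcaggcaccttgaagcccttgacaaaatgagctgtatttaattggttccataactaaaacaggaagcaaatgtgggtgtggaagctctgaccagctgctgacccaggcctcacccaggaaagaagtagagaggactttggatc

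The letters searched for PU.1 (GAGGAA) were found in both Ms4a4b and Ms4a4c, in the part nearer the start, and are in 23.3% of 32851 windows of this length. The TATA letters (TATAAA), in 12.4% of windows, were in Ms4a4b and not in Ms4a4c. Those of AP-1 (TGANTCA), in 6.75% of windows, were in the second window of Ms4a7 and in that of Ms4a8a. No window of the 8 held the C/EBP letters (TTGCNNAA), which are in 9.56% of windows. No match overlapped another. The windows of Ms4a4a, Ms4a6b and Ms4a6c and the first window of Ms4a7 held none of the 4 motifs. Ms4a6b and Ms4a6c shared 48 bases in a row in these windows, and Ms4a4b and Ms4a4c at most 20. A run ends at any differing base, so its length does not give the likeness of whole windows. A relation of these sequences to the changes in level was not tested.
Ms4a6b and Ms4a6c shared run: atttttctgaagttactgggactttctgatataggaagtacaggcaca

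Among the 13 other genes of the family, which include the CD20-like relatives Tmem176a and Tmem176b, 5 had enough counts for the test between brain and stroke blood. Of these 5, 2 were DEGs, both higher in brain (13.1% of all genes). Both, Ms4a14 and Ms4a3, had enough counts only through the brain libraries and were not tested between the blood groups. Their direction was thus largely set in advance. Ms4a14 (chr19:11301249-11314454, minus strand), the neighbour of Ms4a7, had 0 counts in 5 blood libraries and 1 count in stroke blood 3, against 91, 66 and 106 counts in brain. Taking 3 counts per library as the floor, it was at least 25.0-fold higher in brain than in stroke blood (edgeR adjusted p = 0.000341) and at least 25.6-fold higher than in sham blood (adjusted p = 0.00251). It was a DEG in each of the 6 analyses without 1 library, in both comparisons. These share the brain libraries through which the gene passed the filter, so the repeated calls are no separate support. Ms4a3, a gene of granulocyte-monocyte progenitors, had 16, 0 and 2 counts in sham blood, 0, 0 and 9 in stroke blood and 171, 23 and 25 in brain. Its log2 fold change of 4.38 (SE 1.36, edgeR adjusted p = 0.0369) was a DEG in 3 of 6 analyses without 1 library, which gave values from 2.61 to 9.24. The call was lost without brain 1, stroke blood 1 or stroke blood 2, and DESeq2 gave an adjusted p of 0.12. Between brain and sham blood the log2 fold change of Ms4a3 was 3.49, with an adjusted p of 0.101 by edgeR and 0.015 by DESeq2. Brain 1 also held the most Mpo (143 CPM, against 42.3 and 17.8) and Elane (147 CPM, against 10.5 and 16.8), granule genes that progenitors express. The neutrophil list that holds them (8 genes) summed to 48.2 to 1733 CPM in blood and to 984, 617 and 959 CPM in brain, while its defining gene Ly6g was at or below 0.819 CPM in every library. Their relation to Ms4a3 was not tested.

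Ms4a1, which encodes CD20 of B cells, had 29.9 ± 7.45 CPM in sham blood, 10.7 ± 4.71 CPM in stroke blood and 6.42 ± 2.08 CPM in brain (SD, n = 3 each). It was a DEG between brain and sham blood, at a log2 fold change of -2.21 (SE 0.31, edgeR adjusted p = 0.00418), in the main and all 6 analyses without 1 library. Between stroke and sham blood its log2 fold change was -1.49, with an adjusted p of 0.285 by edgeR and 0.00121 by DESeq2, so the tools disagreed on the call. The B cell list (6 genes) summed to 115 to 230 CPM in sham blood, 64.3 to 103 CPM in stroke blood and 49.1 to 100.2 CPM in brain. Of its genes, 4 of 6 were DEGs lower in brain than in sham blood, against 3.67% of all genes tested. Against stroke blood, 0 of the 5 tested were DEGs lower in brain and 1 was higher (7.86% and 13.1% of all genes). Ms4a1 itself was at -0.71 in that comparison (SE 0.38, edgeR adjusted p = 0.188), with overlapping libraries. The part of B cells in the level of Ms4a1 was not tested.

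Tmem176a and Tmem176b, which share a locus and overlap by 81 bases of exon, both had more counts in all stroke blood libraries than in all sham blood libraries. Their log2 fold changes were 0.71 and 0.69, with edgeR adjusted p-values of 0.299 and 0.285. Between these groups, libraries did not overlap for 18.4% of all genes tested. In brain, Tmem176a had 225 ± 40.3 CPM against 119 ± 26.5 CPM in sham blood, a log2 fold change of 0.93 (SE 0.21, edgeR adjusted p = 0.0202), and Tmem176b 472 ± 70.6 CPM against 316 ± 60.4 CPM, at 0.59 (adjusted p = 0.0625). Against stroke blood they were at 0.22 and -0.09, with adjusted p-values of 0.398 and 0.696. Ms4a15 reached at most 31 counts and was not tested. Ms4a2 and Ms4a4d had under 10 counts in every library, and the remaining 5 genes had 0 counts in all.

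Of 6 genes whose products are known to work with MS4A proteins or with TREM2, 2 were DEGs higher in brain than in stroke blood and none was a DEG in the lower direction, against 13.1% and 7.86% of all genes tested. Tnfrsf18 (GITR), the partner of Ms4a4b in T cells, had 2.67, 1.10 and 1.64 CPM in stroke blood and 10.7, 8.99 and 9.79 CPM in brain, a log2 fold change of 2.47 (SE 0.39, edgeR adjusted p = 0.00169). Its exons share 414 bases with Gm16008 of the opposite strand. Trem2, the lipid receptor of macrophages, had 91.9 ± 22.9 CPM in stroke blood and 191 ± 77.8 CPM in brain, at 1.08 (SE 0.29, edgeR adjusted p = 0.0217). That call held in 2 of 6 analyses without 1 library. Its adaptor Tyrobp fell by 0.75 on the log2 scale (edgeR adjusted p = 0.00631), and Card9, the adaptor downstream of Dectin-1, fell by 0.83 (adjusted p = 0.00568). Clec7a (Dectin-1) and the kinase Syk were at -0.41 and -0.18, with adjusted p-values of 0.174 and 0.601.

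Against sham blood, Trem2 was at 1.55 (SE 0.45, edgeR adjusted p = 0.0487), with a DEG call in 2 of 6 analyses without 1 library, and Tnfrsf18 at 2.13 (adjusted p = 0.0197), with a call in 3 of 6. The lower levels of both adaptors did not pass this test. Card9 was at -0.32 (edgeR adjusted p = 0.435), with overlapping libraries, and Tyrobp at -0.48 (adjusted p = 0.0526). Clec7a and Syk were at 0.08 and -0.56 (adjusted p-values of 0.803 and 0.168). Between stroke and sham blood, no partner was a DEG, and Clec7a had an unadjusted edgeR p of 0.0238 at a log2 fold change of 0.50 (adjusted p = 0.341).

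The genes whose levels over the 9 libraries ran most like those of each member were found by Pearson's r of log2(CPM + 1) among 8172 genes, as a description. All points share the contrast of blood with brain, which sets much of r. For Ms4a7 they were C1qb (0.991), a complement gene, the amino acid transporter gene Slc7a8 (0.988) and Mertk (0.987), a receptor for the uptake of dying cells. For Ms4a4c they were Slfn2 (0.995), Sirpb1b (0.985) and Dclre1b (0.985), and for Ms4a6b the related Slfn1 (0.998), the chemokine gene Ccl9 (0.997) and Klra2 (0.996). Ms4a4a ran with Mcemp1 (0.985), Dhrs1 (0.980) and Slpi (0.980), a protease inhibitor gene. Ms4a8a ran with Gm5150 (0.990), Ube2l3 (0.989) and Gid8 (0.988), and Ms4a6c with Ptpn18 (0.989), 1600010M07Rik (0.988) and Mrpl4 (0.987).

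Both members that did not pass the test had companions with a lower r. Ms4a4b ran most with Gm6637 (0.956), Gzma (0.949) and Akt2 (0.948), and Ms4a6d with Nxpe5 (0.930), Slc52a3 (0.906) and Cdkn2d (0.900). Over the 6 blood libraries alone, 2 of the 24 companions were again among the first 3, Gzma for Ms4a4b and Ccl9 for Ms4a6b. Between members, Ms4a4c and Ms4a6b had an r of 0.973 over the 9 libraries and 0.875 over the 6 blood libraries. Ms4a4a and Ms4a6d had an r of 0.334 over all 9 and 0.941 over the blood libraries, where sham blood 3 was the highest for both.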

How the data were processed

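Cells were sorted from 3 sham blood, 3 stroke blood and 3 stroke brain samples, RNA was amplified with SMART-Seq HT and sequenced in paired-end reads of 75 bp. The authors aligned reads with HISAT2 to GRCm38 and deposited raw read counts per gene from HTSeq (versions, annotation release and strand setting not given in the sources used here). No value of the deposited counts was changed. Symbols, exons and coding sequences came from GENCODE M21, which held 53706 of the 53801 gene identifiers. For each pair of groups, genes were filtered with filterByExpr, scaled by TMM and tested with edgeR 4.0.16 (R 4.3.3, glmQLFit and glmQLFTest, groups compared alone), and p-values were adjusted by the Benjamini-Hochberg method over all genes tested. A DEG had an adjusted p under 0.05 and an absolute log2 fold change above 1, the thresholds of the study, which used DESeq2. SE is the absolute log2 fold change over the square root of F. Alternatives were DESeq2 1.42.0, other scalings and filters, a fit of all 9 libraries, a replicate block, downsampling to the smallest library, other thresholds, and each library left out. The script was tested on simulated counts. All 8 members, the other Ms4a genes and 6 partner genes are named. Members and lists were chosen with earlier results of these data known. Within a group, counts of any pair of libraries differed beyond counting error (chi-square over its degrees of freedom from 26.2 to 151.8), so each of the 9 counted as its own sample. With 3 against 3 libraries, exact permutation of 1 gene allows no p below 0.1. Precision is limited by the spread between libraries and not by the depth of 18475118 to 22623578 counts.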

Additional observations from a re-analysis of the deposited data

How the results depend on the processing

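Each of 24 member values was recomputed under 17 alternatives (408 values): 376 kept their direction and their side of the DEG rule, 11 changed sign, 16 became DEGs and 5 were no longer DEGs. Between brain and stroke blood, 3 members were DEGs, 5 with upper-quartile scaling (1 higher, 4 lower), 6 with no fold threshold, and 2 to 5 when 1 library was left out (5 without stroke blood 2 or brain 2, which add Ms4a4a and Ms4a4c, and 2 without stroke blood 3 or brain 1). With library size only, 1 was higher and 1 lower. Between brain and sham blood, 3 were DEGs, 6 with no fold threshold, and 2 to 3 when 1 library was left out. Between stroke and sham blood the count was 0 in all alternatives. Upper-quartile scaling and library size only moved the median of all genes by -0.15 and 0.15 between brain and stroke blood, and library size only by 0.12 between brain and sham blood. Signs changed only for values that had not passed the test. Ms4a6d between brain and stroke blood was at -0.0215 with upper-quartile scaling. Between brain and sham blood it was at 0.11 with library size only, 0.0011 with a mean of at least 50 counts, 0.0264 with the replicate block, 0.29 without sham blood 3 and 0.12 without brain 1. Between stroke and sham blood, leaving out 1 library gave Ms4a4a -0.312 to 0.042, Ms4a6b -0.0367 to 0.168 and Ms4a6d -0.273 to 0.165, with the changed sign without sham blood 3. Ms4a4b ran from -0.0098 (without stroke blood 1) to 0.377 and Ms4a8a from -0.0847 (without stroke blood 3) to 0.272. With the replicate block 3, 0 and 3 members were DEGs in the comparisons of brain with stroke blood, stroke blood with sham blood and brain with sham blood. Same-numbered libraries did not deviate together (correlations from -0.0697 to 0.0672 over 13612 genes). The numbers thus gave no sign of pairing, but this check cannot exclude shared animals, a shared day or a shared batch. With the exon length that the count files' coordinates allow (chosen after seeing the data), 22 of 24 ranks by level per kb were kept, and Ms4a4b preceded Ms4a8a in brain. The causes of these changes were not tested. Of 24 companion genes by pattern, 2 were found again over the 6 blood libraries alone, a set with fewer samples. Members had from 237 to 19374 counts in a library, so depth limits none of the 8, whereas it limits Ms4a3 and Ms4a15.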
